A study of Mus musculus with 12 samples.

Results

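Regulatory T cells of venous thrombi, of the vein wall around them and of the spleen were compared for 32 genes that make cholesterol and fatty acids or control that synthesis. The genes were taken by name for their role in these pathways, with earlier results of these data known, and all 32 were found in each of the 12 libraries, among 20492 genes joined over the whole series. They were read in 4 roles: 8 genes of the steps from acetyl-CoA to squalene, 10 of the steps from squalene to cholesterol, 5 of sterol sensing and the SREBP transcription factors, and 9 of fatty acid synthesis.

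All libraries came from DEREG mice, C57BL/6 animals whose transgene puts a diphtheria toxin receptor and EGFP under Foxp3 control, so that EGFP marks regulatory T cells. Deep vein thrombosis had been induced by tying off the inferior vena cava, and tissue was taken at day 14. By flow cytometry, live cells positive for CD45, CD4, EGFP and CD69, a marker of activation and tissue residence, were taken from spleen, thrombus and vein wall, with 4 libraries per tissue in the labels and no sort from mice without a thrombus. The labels do not say whether a library came from 1 mouse or several, and a p-value here speaks of variation among these samples, part of which may be technical.

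Cholesterol is built from acetyl-CoA through mevalonate, farnesyl pyrophosphate and squalene, and the last steps remodel lanosterol in the endoplasmic reticulum. When membrane sterol falls, SCAP escorts the SREBP proteins to the Golgi, where they are cut and released to the nucleus, and INSIG proteins hold SCAP back when sterol is plentiful. Activated T cells raise lipid synthesis for membrane growth, and the mevalonate route also yields the isoprenoid groups that anchor small GTPases.

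Several facts of the libraries touch every value. The files fall into 3 sets with different layouts and gene models, with spleen 1 and thrombus 1 in set 1, the libraries spleen 2, thrombus 2 and vein wall 1 in set 2, and the rest in set 3. The set accounted for 0.90 of the variance of the first principal component over the 10 samples used, against 0.0281 for tissue. On the second component, with 16.0% of the variance, the set accounted for 0.65 and tissue for 0.59. Spleen 3 and 4 differed by a mean chi-square of 3.95 per gene and vein wall 3 and 4 by 2.56, where the other pairs of a tissue gave 97.3 to 358, so each close pair was summed and counted as 1 sample, which left 3 spleen, 4 thrombus and 3 vein wall samples. Total exon reads per library ran from 9719151 to 55386086. Foxp3 lay between 279 and 716 CPM (exon reads scaled to the normalised library size) in all 10 samples. Thrombus 2 stood apart with 1649 CPM over 8 macrophage and monocyte genes, where the other samples had 23.5 to 269.9. Lyz2 alone gave 1370 CPM of that sum. Cd68, Adgre1, C1qa and C1qb were also highest in thrombus 2, while Csf1r, C1qc and Mrc1 were not. Genes of other cell types were summed as well: 7 B and plasma cell genes summed to 164 to 303 CPM in spleen, 205 to 998 in thrombus and 377 to 1361 in vein wall, and 6 fibroblast genes to at most 0.459 in spleen and 4.39 to 60.7 in the other samples. The 9 pancreas acinar genes summed to 22.5 to 113 CPM in spleen, 20.1 to 344 in thrombus and 37.9 to 172 in vein wall. Thrombus 4 was highest. Cela1 gave most of the spleen sum, at 20.7, 113 and 22.3 CPM. Every other acinar gene was at most 1.77 CPM in spleen, while Cela2a ran from 0 to 159 CPM in thrombus and from 9.56 to 33.7 in vein wall. The part of these cells in the member levels was not tested. Set 1 libraries had Xist but no Ddx3y reads, set 2 libraries had both, and set 3 libraries had Ddx3y and no Xist reads, so that set and sex cannot be told apart for the X-linked members Ebp and Nsdhl.

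SREBP proteins bind a sterol regulatory element beside CCAAT and GC boxes in many promoters of this route, and 4 promoters are printed to show how these letters sit in members with large or irregular differences here. RefSeq (GRCm38.p6) gave a promoter for 26 of the 32 members, and each was searched over the 250 bases before the start on both strands. Sequences run 5′ to 3′ on the gene's strand to the RefSeq start, or to the first annotated exon base where that comes earlier. The Hmgcs1 stretch ends short of the annotated gene start at 119690379. Capitals mark matches to TCACNCCAC or CCAAT.
Hmgcs1, chr13:119690101-119690350, plus strand: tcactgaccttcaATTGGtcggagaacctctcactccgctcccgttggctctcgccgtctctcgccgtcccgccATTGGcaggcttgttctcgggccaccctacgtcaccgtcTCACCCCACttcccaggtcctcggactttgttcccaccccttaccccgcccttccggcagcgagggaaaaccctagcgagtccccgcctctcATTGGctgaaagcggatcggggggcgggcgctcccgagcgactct
Mvd, chr8:122443423-122443672, minus strand: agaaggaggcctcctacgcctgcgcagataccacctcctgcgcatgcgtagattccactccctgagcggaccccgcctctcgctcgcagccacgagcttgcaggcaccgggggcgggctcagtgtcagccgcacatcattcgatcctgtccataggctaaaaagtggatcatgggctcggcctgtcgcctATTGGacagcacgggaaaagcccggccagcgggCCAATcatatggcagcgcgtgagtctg
Lss, chr10:76531355-76531587, plus strand: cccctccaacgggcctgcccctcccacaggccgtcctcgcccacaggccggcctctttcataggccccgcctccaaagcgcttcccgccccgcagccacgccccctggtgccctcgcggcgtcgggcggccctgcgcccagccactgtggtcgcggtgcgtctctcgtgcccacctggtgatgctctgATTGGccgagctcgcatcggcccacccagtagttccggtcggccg
Cyp51, chr5:4104747-4104947, minus strand: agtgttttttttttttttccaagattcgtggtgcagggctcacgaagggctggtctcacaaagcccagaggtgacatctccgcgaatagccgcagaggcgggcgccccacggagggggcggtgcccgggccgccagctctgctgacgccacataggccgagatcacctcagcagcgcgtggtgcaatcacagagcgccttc
An exact match to TCACNCCAC was found in 1 of the 26 members, Hmgcs1, and in 1.22% of all promoters of this length. CCAAT was found in 20 members (76.9%), against 37.5% of all promoters and 40.8% of those of genes tested here. The GC box GGGCGG was found in 21 (80.8%), against 35.4% of all promoters and 63% of those of tested genes. The palindrome TCACGTGA was in 0 members, in 0.907% of all promoters and in 1.81% of those of tested genes. The CCAAT match of Cyp51 lies past its first exon base and is not in the stretch shown. A match is a description of letters, and binding was not measured. Only exact matches to these patterns were searched. A promoter without a match may therefore still hold an element with other letters.

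The spread between samples of 1 tissue was wide. Mean levels over the 10 samples were set per kilobase of exon to compare genes. Ebp (79.9 CPM per kb), the sterol isomerase, and Fdps (48.5 CPM per kb), which makes farnesyl pyrophosphate, led the order. Elovl5 (41.7 CPM per kb), which lengthens polyunsaturated fatty acids, and Msmo1 (39.8 CPM per kb), the methylsterol oxidase, came next. The lowest were Lss (0.698 CPM per kb), Acaca (0.486 CPM per kb), the carboxylase that commits acetyl-CoA to fatty acids, and the desaturase gene Fads2 (0.108 CPM per kb). Exon lengths differ between the sets, by up to 3.37 times for Msmo1, 3.07 times for Fdft1, 2.36 times for Tm7sf2 and 2.19 times for Lss, so neighbours in this order are not separated.

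**Figure D1:**
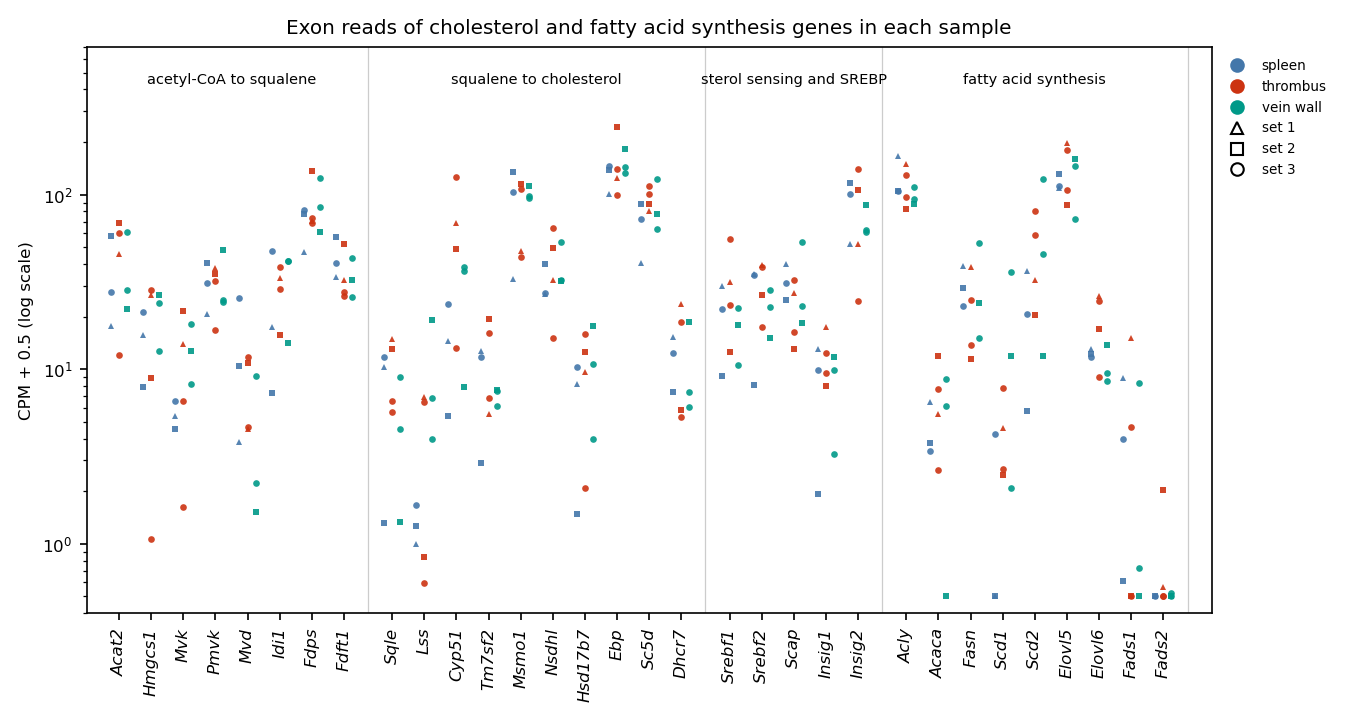
Exon reads of each of the 32 members in each of the 10 samples, as CPM plus a pseudocount of 0.5 on a log axis, grouped by role. Colour gives the tissue and shape the set of files; in most genes the 3 colours overlap, and the low genes Lss, Scd1 and Fads1 spread most.

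Of the 32 members, 31 passed the filter on low counts. Fads2, the partner of Fads1 in polyunsaturated fatty acid synthesis, held 29 reads in all, 27 of them in thrombus 2, and was not tested. The SD of the log2 level around the tissue mean had a median of 1.31 for the 10 members with a mean of 1 to 10 CPM. It was 0.42 for the 3 members above 100 CPM, and all genes at those levels had 1.32 and 0.47. For the 8 members at 10 to 30 CPM it was 0.80, against 0.88 for all genes. For the 10 members at 30 to 100 CPM it was 0.71, above the 0.61 of all genes. The highest sample was 197 times the lowest for Lss, and Scd1, Fads1 and Acaca had samples with 0 reads. For Hmgcs1, which makes the precursor of mevalonate, the range was 49.8 times: thrombus 4 had 0.564 CPM from 6 reads, and the other 9 samples had 7.35 to 28.1 CPM. Thrombus 1 held the highest value of 7 of the 31 members, while spleen 2 held the lowest of 9 and thrombus 4 the lowest of 8.

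Between thrombus and spleen no member passed the test. The edgeR quasi-likelihood test with Benjamini-Hochberg adjustment called 0 of the 31 members, where it called 17 of 11485 genes (0.148%), and DESeq2 also called 0 members, against 1.1% of the genes it tested. With the set of files in the model edgeR again called 0 members, against 0.461% of genes. At an unadjusted p under 0.05 there was 1 member, Cyp51, against 4.16% of all genes. The log2 fold change was above 0 in 23 of 31 members (52.1% of all genes), with a median of 0.34 against 0.03 over all genes. That median was 0.52 within set 1, 0.31 within set 2 and -0.31 within set 3, so it did not keep its sign over the sets. In 0 members did the tissues fail to overlap (5.03% of all genes). Fewer cells of a type and less RNA per cell cannot be told apart in these bulk samples.

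Cyp51, which removes a methyl group from lanosterol and lies at chr5:4081145-4104746 (GRCm38), had the largest difference. It was at 14.0, 4.90 and 23.0 CPM in spleen and at 67.9, 48.1, 12.6 and 125 CPM in thrombus (samples 1 to 4). In vein wall it was at 7.38, 38 and 35.8 CPM. Thrombus 1, 2 and 4 lay above every spleen sample, and thrombus 3 lay among them. The log2 fold change was 2.18 ± 0.76 (SE; 95% interval 0.56 to 3.79), with an adjusted p of 0.848 from edgeR. With the set of files in the model it was 2.30 ± 0.65 (adjusted p = 0.201 from edgeR), and within the sets it was 2.24, 3.17 and 0.79. Without the filter on low counts edgeR gave 2.17 and an adjusted p of 0.0496, the only member called in that setting, where 82 genes were called in all (0.434%). Cyp51 reads were nearly all unique, with 0.777% matching more than 1 place. Of its exon bases, 3.76% overlap Akap9 on the other strand. Whether the counting used strand is not given in the sources, so reads of that overlap were not separated. Other members overlap another gene more: Fdps (26.7%), Fdft1 (18.3%), Scap (13.2%), Hmgcs1 (12.1%), Tm7sf2 (12.1%) and Idi1 (9.22%). The part of these overlaps in the counts was not tested.

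The other large differences from spleen were in low or uneven genes. Lss, which closes the rings of lanosterol, was at 0.496, 0.762 and 1.16 CPM in spleen and at 6.42, 0.341, 6.00 and 0.0940 CPM in thrombus, so thrombus samples lay on both sides of spleen. Its log2 fold change was 1.98 ± 1.46 (edgeR adjusted p = 1.00). Mvk, which phosphorylates mevalonate, was at 4.89, 4.03 and 6.07 CPM in spleen and at 13.5, 21.1, 6.11 and 1.13 CPM in thrombus. Its log2 fold change of 1.06 ± 0.92 (edgeR adjusted p = 1.00) fell to 0.46 without thrombus 2. Mvd, the decarboxylase that follows, went the other way at -0.78 ± 0.99 (edgeR adjusted p = 1.00), from 3.33, 9.96 and 25.1 CPM in spleen to 4.06, 10.4, 4.18 and 11.2 CPM in thrombus. That direction rested on the summed spleen pair, without which the value was 0.16.

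The stearoyl-CoA desaturases, which put the first double bond into saturated fatty acids, varied widely within tissues. Scd1 had 0 reads in spleen 1 and in spleen 2, whose limits for a count of 0 were 0.213 and 0.163 CPM, and 3.75 CPM in the summed pair. It was at 4.13, 1.99, 7.28 and 2.16 CPM in thrombus and at 11.4, 1.58 and 35.3 CPM in vein wall. Scd2 was at 36.1, 5.28 and 20.1 CPM in spleen, at 31.8, 20.0, 58.4 and 79.7 CPM in thrombus and at 11.4, 45.2 and 122 CPM in vein wall. The tissues overlapped in both genes, and the vein wall pair was the highest sample in both. The log2 fold changes of thrombus over spleen were 1.59 ± 1.51 for Scd1 and 1.21 ± 0.77 for Scd2 (edgeR adjusted p = 1.00 for both). The Scd1 fold rests on the summed spleen pair, the only spleen sample with Scd1 reads, and without it no fold can be given from fitted values. Scd1 is also abundant in fat cells: 8 adipocyte genes summed to 0 to 1.56 CPM in spleen, 4.13 to 41.3 in thrombus and 9.82 to 16.4 in vein wall, with Fabp4 at 8.51 to 13.7 CPM in vein wall and at most 1.38 in spleen. In thrombus 3, Cfd was at 14.8 and Car3 at 14.6 CPM, both 0 in spleen. Adipoq was at most 1.97 CPM, and Plin1 was highest in spleen 1 at 1.21. Their part in the Scd1 values was not tested.

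**Figure D2:**
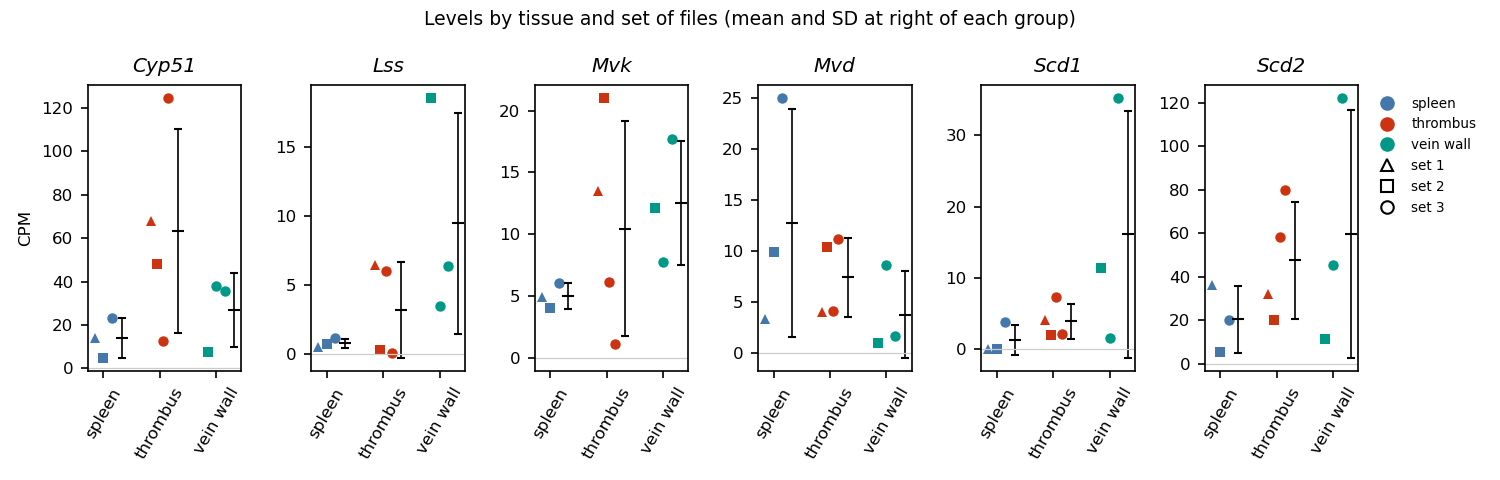
CPM of exon reads in each sample for 6 members with large differences, by tissue (colour) and set of files (shape), with the mean and SD at the right of each group and a linear axis for each gene. Cyp51 in thrombus runs from 12.6 to 125 CPM, and the vein wall pair is the highest sample for Scd1 (35.3 CPM) and Scd2 (122 CPM).

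Between vein wall and spleen no member passed the test either. The edgeR test called 0 of 31 members, where it called 13 of 11485 genes (0.113%), and DESeq2 called 0 members, against 1.51% of its genes. With the set of files in the model the count was again 0, against 0.418% of genes. At an unadjusted p under 0.05 there were 2 members, Lss and Scd1, against 5.47% of all genes. The fold change was above 0 in 18 of 31 members (49.1% of all genes), and the median was 0.10 against -0.01 over all genes, with 0.25 within set 2 and -0.12 within set 3. Both Lss and Mvk were higher in every vein wall sample than in any spleen sample, 2 of 31 members, where 13.3% of all genes did not overlap and 6.8% did so with vein wall higher.

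Lss was at 18.5, 3.49 and 6.37 CPM in vein wall (9.47 ± 7.99, SD, n = 3) against 0.805 ± 0.332 in spleen (SD, n = 3). The log2 fold change was 3.54 ± 1.61 (95% interval 0.16 to 6.91), with an edgeR adjusted p of 0.883 and a DESeq2 adjusted p of 0.14. The gene held 875 reads over all samples, of which 64.3% matched more than 1 place. With unique reads alone the difference was 5.11 ± 2.31 (edgeR adjusted p = 0.949), from at most 5 unique reads in any spleen library. Mvk was at 12.1, 7.75 and 17.7 CPM in vein wall, with a log2 fold change of 1.33 ± 0.97 (edgeR adjusted p = 0.959), and had no read with a second match.

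Among the other members with large differences, Scd1 was 3.65 ± 1.71 higher on the log2 scale (95% interval 0.06 to 7.24, edgeR adjusted p = 0.900), and 2.34 without the vein wall pair; as for thrombus, it rests on the one spleen sample with reads. Scd2 was 1.54 ± 0.81 higher (edgeR adjusted p = 0.924), and 0.46 without that pair. Mvd was at 1.03, 8.68 and 1.72 CPM in vein wall, and its log2 fold change was -1.75 ± 1.10 (edgeR adjusted p = 0.959), from -3.19 without vein wall 2 to -0.80 without the spleen pair. A second match was recorded for 68.8% of Mvd reads over all samples, for 82.7% in set 3 and for 0% in set 2. Cyp51 was 0.95 ± 0.77 above spleen on the log2 scale (edgeR adjusted p = 0.962). None of these 4 differences passed the test.

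Thrombus and vein wall Treg, the 2 tissue groups at the clot, were then set against each other. The edgeR test called 0 of 31 members and 0 of 11485 genes (0%), and DESeq2 called 0 members, against 0.383% of its genes. At an unadjusted p under 0.05 there were 0 members and 2.93% of all genes, and in 0 members did the tissues fail to overlap (3.8% of all genes). The fold change was above 0 in 18 of 31 members (52.2% of all genes), with a median of 0.12 against 0.04 over all genes. The largest log2 fold changes of thrombus over vein wall were -2.05 ± 1.45 for Scd1, -1.56 ± 1.36 for Lss, 1.23 ± 0.73 for Cyp51, 1.09 ± 1.08 for the squalene epoxidase Sqle, 0.97 ± 1.03 for Mvd and 0.88 ± 0.67 for Elovl6, all with an edgeR adjusted p of 1.00. Single samples moved several of these: Scd1 was -0.74 without the vein wall pair, Lss was -0.65 without vein wall 1, and Cyp51 was 0.66 without thrombus 4. Mvd was 0.52 without vein wall 1 and 2.43 without vein wall 2, and Sqle was 0.57 and 1.93 in the same order. Sqle was at 14.4, 12.5, 6.11 and 5.17 CPM in thrombus and at 0.834, 8.57 and 4.05 CPM in vein wall. Elovl6, which lengthens palmitate, was at 25.6, 16.4, 24.0 and 8.46 CPM in thrombus, at 13.2, 8.95 and 8.09 CPM in vein wall and at 12.6, 11.7 and 11.3 CPM in spleen. Thrombus 1, 2 and 3 were above all other samples for Elovl6, and thrombus 4 was among the lowest.

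**Figure D3:**
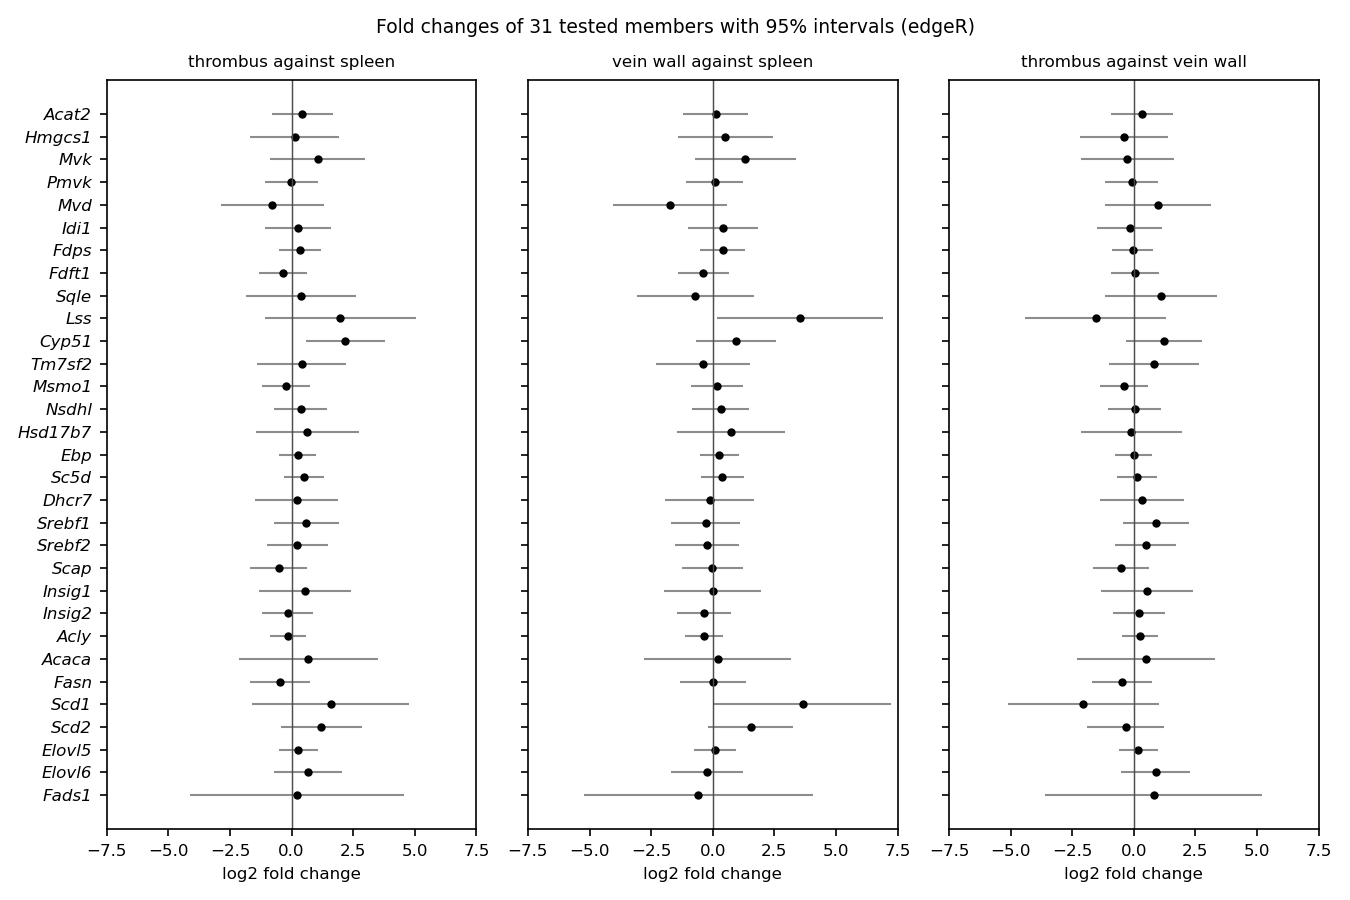
Log2 fold change of the 31 tested members in the 3 comparisons, with the 95% interval of the edgeR fit as a line. Intervals of Cyp51 in the first panel and of Lss and Scd1 in the second lie above 0 before adjustment, and the low genes Fads1, Scd1 and Lss have the widest ones.

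How small a difference these samples bound depends on the gene. The 95% interval stayed within 1 log2 unit of 0 in 2 of 31 members for thrombus against spleen (Ebp and the citrate lyase Acly), where 13% of all genes did so. It did in 1 member for vein wall against spleen (Elovl5; 6.45% of all genes) and in 6 for thrombus against vein wall (Fdps, Fdft1, Ebp, Sc5d, Acly and Elovl5; 11.3%). For Ebp the interval of thrombus over spleen ran from -0.50 to 1.00, and for Acly from -0.86 to 0.59. For the other members the interval reached past 1 log2 unit in at least 1 direction.

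By role, the summed levels overlapped between tissues, except those of the sterol sensing genes in vein wall and spleen, given below. The 8 genes from acetyl-CoA to squalene summed to 157 to 278 CPM in spleen, 169 to 344 in thrombus and 215 to 321 in vein wall. The 10 genes from squalene to cholesterol summed to 363 ± 91.2 CPM in the 3 spleen samples (mean and SD), to 474 ± 102 in the 4 thrombus samples and to 449 ± 47.9 in the 3 vein wall samples, and the log2 fold change of thrombus over spleen was above 0 in 9 of these 10 (52.1% of all genes). Within set 3 it was above 0 in 4 of the 10, with a median of -0.23. Among them are the sterol reductases Tm7sf2 and Dhcr7, the demethylating enzymes Nsdhl and Hsd17b7, and the desaturase Sc5d, whose log2 fold changes over spleen lay between 0.20 and 0.63 in thrombus and between -0.39 and 0.74 in vein wall.

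The early enzymes also showed no call. Acat2, which joins acetyl-CoA units, Pmvk, the second mevalonate kinase, Idi1, which isomerises isopentenyl pyrophosphate, and Fdft1, which makes squalene, had log2 fold changes of 0.44, -0.02, 0.27 and -0.35 in thrombus and of 0.12, 0.07, 0.43 and -0.38 in vein wall. Idi1 reads had a second match in 87.6% of cases in set 2 and in 0.498% in set 3. Reads with a second match made up 50.1% for Acat2 and 68.1% for Fdps, where they were 3.84% in set 2 and 88.4% in set 3. The part of this difference between sets in the level of Fdps was not tested.

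Each of the 5 sterol sensing genes had overlapping levels in the 3 tissues. Their sum ran from 158 to 196 CPM in spleen, 145 to 221 in thrombus and 136 to 156 in vein wall. Every vein wall sum was thus below every spleen sum, where 13.3% of all single genes did not overlap. This sum was not tested. The median log2 fold change of the 5 in vein wall was -0.23, and 0.03 with the set of files in the model. Srebf1, which drives fatty acid genes, had a mean and SD of 20.0 ± 10.6 CPM over the 3 spleen samples, 30.3 ± 18.4 over the 4 thrombus samples and 16.4 ± 6.00 over the 3 vein wall samples. Srebf2, which drives cholesterol genes, was at 25.4 ± 15.5, 30 ± 10.5 and 21.6 ± 6.73 CPM in the same order. The log2 fold changes over spleen of Srebf1, Srebf2, Scap, Insig1 and Insig2 ran from -0.53 to 0.60 in thrombus and from -0.36 to -0.0041 in vein wall, each with a 95% interval that spans 0. Insig1 reads had a second match in 91.6% of cases in set 2 and in 0.0831% in set 3.

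In fatty acid synthesis, Acly, which makes cytosolic acetyl-CoA, was among the most even members, with a mean and SD of 125 ± 36.0 CPM over the spleen samples, 114 ± 30.4 over thrombus and 96.9 ± 11.3 over vein wall. Fasn, the fatty acid synthase, was at 29.9 ± 8.22, 21.6 ± 12.4 and 30.1 ± 19.7 CPM, and Acaca at 4.05 ± 1.66, 6.47 ± 3.93 and 4.64 ± 4.23 CPM. Fads1 had 0 reads in thrombus 2, thrombus 3 and vein wall 1 and up to 14.5 CPM in thrombus 1, so its interval spanned -4.12 to 4.57 on the log2 scale for thrombus over spleen. Markers of dividing cells were summed beside these values: 12 proliferation genes summed to 531 to 557 CPM in spleen, 590 to 1281 in thrombus, highest in thrombus 1, and 630 to 827 in vein wall. Stmn1 was at most 81.4 CPM in spleen and at least 135 CPM in the other samples, while Mki67, Top2a, Tyms, Mcm2, Mcm5 and Pcna overlapped between the tissues. Their part in the member levels was not tested.

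Intron reads, a measure examined after the files had been seen, separated spleen from the other tissues for Elovl5 where exon reads did not. Elovl5 lies at chr9:77917364-77984519 (GRCm38). Its exon reads were at 109, 131 and 111 CPM in spleen, 196, 86.8, 105 and 180 CPM in thrombus and 159, 71.6 and 145 CPM in vein wall, with log2 fold changes over spleen of 0.28 ± 0.38 and 0.10 ± 0.41 (edgeR adjusted p = 1.00 and 0.993). Its intron reads, as CPM of intron reads, were at 81.6, 144 and 86.7 in spleen, at 401, 342, 573 and 442 in thrombus and at 501, 706 and 443 in vein wall. Every thrombus and vein wall sample was above every spleen sample, while thrombus and vein wall overlapped (log2 fold change of thrombus over vein wall -0.32 ± 0.36, edgeR adjusted p = 0.998). In all, 3 of the 27 members tested on intron reads did not overlap between thrombus and spleen (Acat2, Elovl5 and Elovl6, all higher in thrombus; 8.03% of 11626 genes) and 4 between vein wall and spleen (Acat2 and Elovl5 higher, Sqle and Insig2 lower; 13.3%).

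The log2 fold change of Elovl5 intron reads was 2.08 ± 0.39 in thrombus and 2.40 ± 0.41 in vein wall over spleen, both higher in every sample of the tissue. Neither passed adjustment over all genes, with an edgeR adjusted p of 0.323 and 0.122, and of 0.141 and 0.0848 with the set of files in the model. The edgeR fit of intron reads called 0 members and 1 gene (Ramp3) in each of these comparisons (0.0086%), with 2 and 4 members at an unadjusted p under 0.05, against 6.1% and 6.55% of genes. Introns made up 8.81% to 12.2% of Elovl5 reads in spleen, 24.1% to 54.9% in thrombus and 27.7% to 53.7% in vein wall, while over all genes they made up 15% to 20.5%, 12.1% to 20.0% and 13.4% to 16.5% of gene reads. Between 82.4% and 99.9% of the Elovl5 intron reads of a library were unique, and all of its exon reads were. Whether the libraries or the counting kept strand is not given in the sources used here, so the strand of these intron reads is not known.

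**Figure D4:**
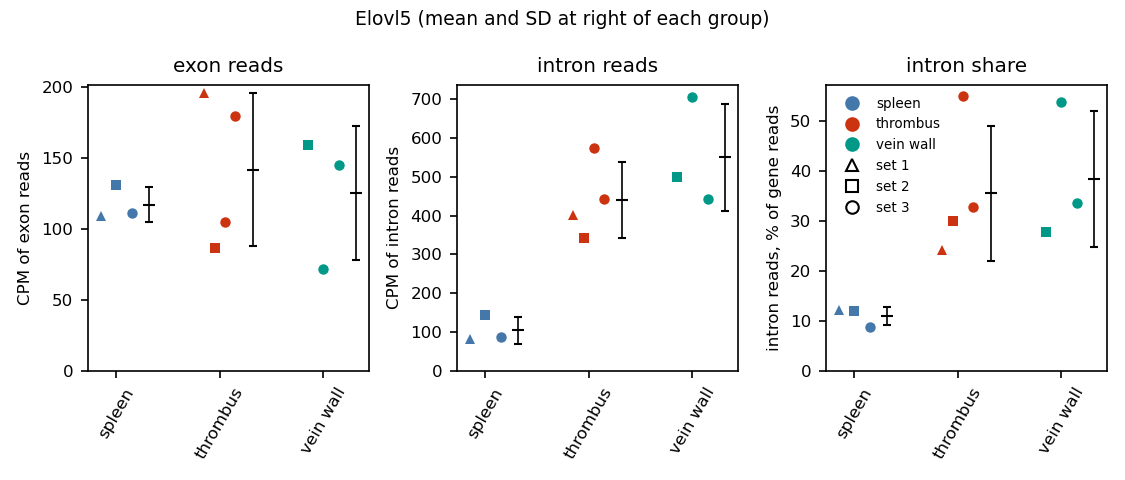
Elovl5 exon reads, intron reads and the share of intron reads among gene reads in each sample, by tissue (colour) and set of files (shape), with the mean and SD at the right of each group. Exon levels overlap between the tissues, while intron reads lie at 81.6 to 144 CPM in spleen and at 342 CPM or more in every other sample.

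Among the other members, intron reads of Acat2 were 3.73 ± 0.98 higher in thrombus (edgeR adjusted p = 0.730) and 2.45 ± 0.95 higher in vein wall (edgeR adjusted p = 0.723) on the log2 scale. Intron reads of Sqle were at -4.22 ± 1.35 in vein wall against spleen (edgeR adjusted p = 0.667). These differences did not pass the test. Cyp51, with the largest exon difference between thrombus and spleen, had mean intron reads of 22.5 ± 28.7 CPM (SD) in spleen and 22.4 ± 22.1 in thrombus. Its log2 fold change on intron reads was 0.0010 ± 1.18.

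Of 39 further genes of lipid synthesis and sterol handling, 35 were tested and edgeR called 0 in each comparison, with 2 (Acsl3 and Soat1), 1 (Stard4) and 0 at an unadjusted p under 0.05 for thrombus against spleen, vein wall against spleen and thrombus against vein wall, against 4.16%, 5.47% and 2.93% of all genes. In thrombus 17 were above spleen and 18 below, with a median log2 fold change of -0.01, and in vein wall the counts were again 17 and 18, with a median of -0.01. The groups differed in vein wall: of the genes of SREBP processing and degradation, 1 was above spleen and 6 below (median -0.68). For sterol transport and storage, 4 were above and 1 below (median 0.63), where 49.1% of all genes were above 0. The medians of the remaining groups lay between -0.0036 and 0.031. The genes with the highest mean over the 3 tissues in each group were Tecr, the last enzyme of fatty acid elongation (mean 561 CPM for spleen, 557 for thrombus, 620 for vein wall), Cyb5r3, which supplies electrons to sterol and fatty acid desaturases (138, 156 and 93.1 CPM; Ggps1 was higher in spleen, and Ggps1 and Cyb5b in vein wall), Mbtps1, the protease that first cuts SREBP (73.9, 56.9 and 59.3 CPM), Npc2, which moves cholesterol out of lysosomes (209, 282 and 323 CPM), and the liver X receptor Nr1h2 (56.3, 65.7 and 57.2 CPM). Of the 35, 3 did not overlap between thrombus and spleen (Mid1ip1, Acsl3 and Npc2; 5.03% of all genes) and 4 between vein wall and spleen (Cyb5b, Stard4, Npc2 and Soat1; 13.3%), all higher at the clot. Npc2 was in both, at 0.43 ± 0.29 and 0.63 ± 0.31 on the log2 scale (edgeR adjusted p = 1.00 and 0.912). These genes were named after their values were seen.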

How the data were processed

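The authors deposited, per library and gene, counts of total and unique exon reads and of intron reads, together with normalized values not used here, per the file headers. The genome build was GRCm38 according to the submitters' processing notes. The tools that aligned and counted the reads were not given in the sources used here. RNA (2 ng) was amplified over 12 cycles, per the labels' protocols, without molecular identifiers, so limits for a count of 0 (3 counts) cover counting error only. Total exon reads include reads with several matches, 13.6% to 21.8% of a library. Sets 1 and 3 were joined by Ensembl ID and set 2 by symbol with overlapping position, which kept 91.1% to 95% of exon reads. Counts were tested with edgeR 4.0.16 (R 4.3.3, TMM, default filter on low counts, robust quasi-likelihood) in 1 fit of all tissues, adjusted over 11485 genes at 0.05; DESeq2 1.42.0 was an alternative. CPM use TMM library sizes. The procedure was tested on simulated data with 1 fixed spread for all genes and changes placed only in the more abundant ones. Its power for low members was therefore not measured. Full values are given for the 6 members per comparison with the largest absolute log2 fold change, 8 genes in all. Members, lists and tests were chosen with earlier results of these data known.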

Additional observations from a re-analysis of the deposited data

Results flagged for a closer look

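Fdps in thrombus 2 was at 135 CPM, far from the other thrombus samples, which lay between 68.1 and 72.8 CPM. The gap to the nearest sample was 0.931 of the range, above Dixon's limit at 95% for 4 samples, in 1 of 31 thrombus groups examined, and chance flags about 1 in 20 such groups. Thrombus 2 is the one thrombus sample of set 2, where 3.84% of Fdps reads had a second match against 90.2% in set 1 and 88.4% in set 3. In the other samples of set 2, Fdps was at 77.1 CPM (spleen 2) and 60.7 CPM (vein wall 1). It was at 124 CPM in vein wall 2, of set 3. Thrombus 2 is also the sample with 1649 CPM of macrophage and monocyte genes, of which Lyz2 gave 1370 CPM. The part of either in this value was not tested.

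Elovl5 intron reads lie outside the main measurement of exon reads. Among the 27 members tested on intron reads, they were flagged for an unadjusted edgeR p under 0.001 against spleen. Their log2 fold change over spleen was 2.08 in thrombus and 2.40 in vein wall, and every sample of these tissues lay above the spleen samples. The adjusted p from edgeR was 0.323 and 0.122. The flag was drawn from these same intron reads, so the values add no separate support.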

How the results depend on the processing

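The count of members called was 0 in each comparison under every alternative, with 2 exceptions for thrombus against spleen: 1 member without the filter on low counts (Cyp51, adjusted p = 0.0496 from edgeR) and 1 when the set was a covariate and thrombus 3 was left out, a combination added after seeing the data. Set 3 alone holds 1 spleen sample, the summed pair, so spread within spleen could not enter that fit. There the median log2 fold change of members was -0.16 for thrombus against spleen and -0.16 for thrombus against vein wall. Reversed values were -0.71 for Mvk (thrombus against spleen) and -0.16 for Sqle (thrombus against vein wall). The cause was not tested. Mvd for thrombus against spleen ran from -1.24 to 0.16 with 1 sample left out, and reversed without the summed spleen pair. Over all genes, calls moved from 17, 13 and 0 to 146, 194 and 48 with DESeq2, to 82, 66 and 2 without the filter, and to 53, 48 and 0 with the set as covariate. With unique reads vein wall against spleen gave 7. Leaving out 1 sample gave 6 to 34, 5 to 28 and 0 to 1. The labels do not say that a replicate number marks the same mice. Same-numbered spleen and thrombus libraries, which share a set, correlated at 0.092 to 0.402, and vein wall libraries correlated with those of their number at -0.075 to 0.191, so the numbers were not taken as pairs. With 12 libraries kept apart, the fit without a replicate block called 35 and 51 genes over spleen, and the fit with the block 52 and 64, with 0 members and member medians of 0.28 and 0.23 for thrombus against spleen. Elovl5 intron values ran from 1.90 to 2.35 and from 2.17 to 2.69 with 1 sample left out, with adjusted p of 0.141 to 0.921 and 0.0848 to 0.66 over all alternatives. Depth limits the low genes most, since Lss held 875 reads and Fads2 29 over all samples.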
